A study of Mus musculus with 12 samples.

Results

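The genes described are 9 genes used to recognise spiral ganglion neurons (SGNs), chosen by name: Pou4f1, Isl1, Prox1, Gata3, Runx1, Calb1, Calb2, Eya1 and Scrt2. They are 9 of the 55487 genes in the expression table, each has 1 row, and 7 of them were among the 16016 genes tested. Poly(A) RNA-seq covered 12 libraries, 3 per group, made from cochlear glial cells of postnatal day 4 mice of mixed C57Bl6 and FVB/N background and both sexes. The first group was the glial spheres themselves, the starting cells, grown with EGF, bFGF and IGF. In SCDM the sphere cells were differentiated with 2 neurotrophins, BDNF at 50 ng/ml and NT3 at 50 ng/ml. SCDM/FGF added bFGF at 100 ng/ml. The FIBCL group, whose cells are called FIBCL-iNs, received Forskolin at 20 μM, ISX9 at 20 μM, I-BET at 1 μM, CHIR99021 at 10 μM and LIF at 1000 U/ml in Neurobasal medium with bFGF, which the labels list both at 50 and at 100 ng/ml. No BDNF or NT3 is listed for FIBCL, so base medium, growth factors and small molecules differed together and their effects cannot be told apart. The labels give 14 days of differentiation. Spheres were grown from pooled ganglia, and the study describes non-glial cells in them with markers enriched in otic mesenchyme. In the table the FIBCL columns are named FIBC, a name also used for the mixture without LIF.

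SGNs are the bipolar neurons that carry sound signals from cochlear hair cells to the brainstem. Most are type I neurons, which contact inner hair cells, and a minority are type II neurons, which contact outer hair cells. During development Eya1 acts in the otic placode, Gata3 and the proneural factors act in the neuroblasts, and Pou4f1, Isl1 and Prox1 are found in the young neurons. In the mature ganglion, calretinin (Calb2) and Pou4f1 mark different type I subtypes.

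Levels are given in TPM, a unit of transcripts relative to all transcripts of a library and corrected for transcript length, after the libraries were scaled to each other (scaled TPM). Differences are log2 fold changes of (scaled TPM + 1), which understate the change of genes at low level, with the standard error (SE). A gene was said to have risen or fallen at a Benjamini-Hochberg adjusted p under 0.05 over all genes tested in that comparison, by limma. Read numbers cannot be recovered from TPM, and depth is unknown. The listed TPM summed to 899295 to 911076 in the FIBCL libraries and to 982067 to 994845 in the others, and 21625 to 22281 genes were above 0 in a library. None of 12 housekeeping genes was at 0 in any library. Pearson r across genes was 0.983 to 0.985 within groups and 0.788 to 0.936 between groups, and no library stood apart from its group.

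In FIBCL-iNs, 6 of the 9 identity genes lay above every library of the other 3 groups. These were Pou4f1, Isl1, Prox1, Gata3, Scrt2 and Calb1, all at a few scaled TPM. Eya1 lay below every other library, Runx1 was as high in SCDM as in FIBCL, and Calb2 was near 0 in FIBCL. For comparison, 23.6% of the genes tested lay above every other library in FIBCL and 27.3% lay below. Calb1 and Calb2 were not among the genes tested. Pou4f1, Isl1, Prox1, Gata3 and Scrt2 reached the limit of 1 TPM in 3 libraries that let a gene be tested only in FIBCL, so a tested gene of this kind had to be higher there, and the count of risen genes is a description.

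**Figure D1:**
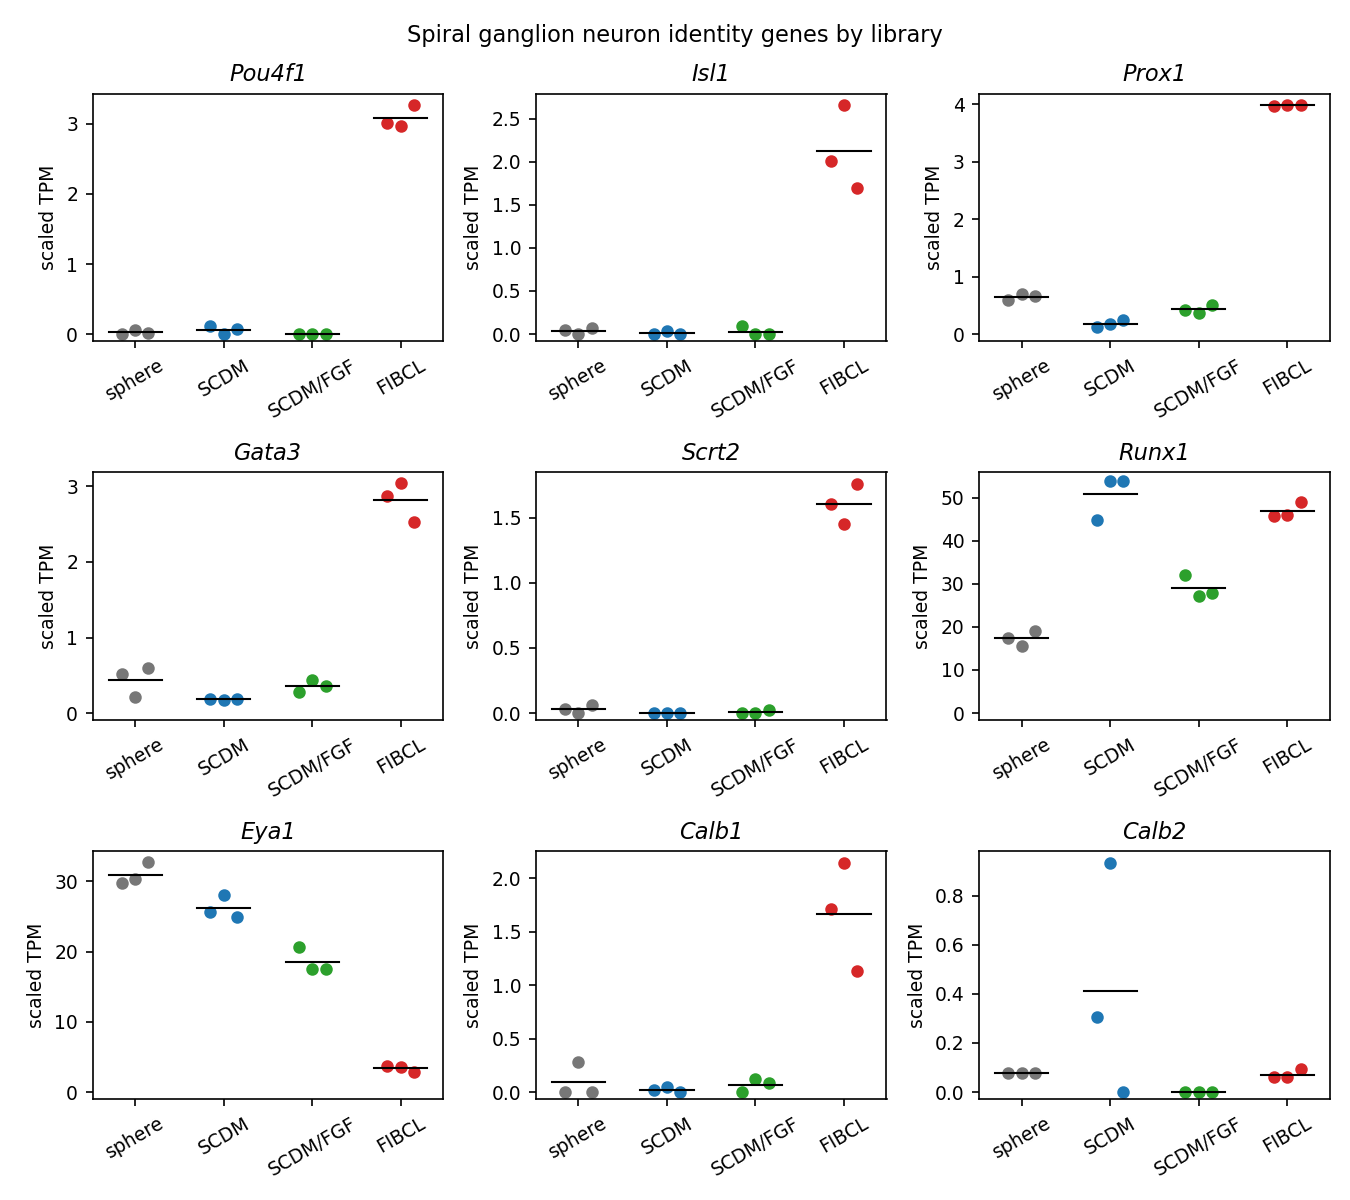
Scaled TPM (vertical axes, each from 0 and each with its own range) of the 9 identity genes in the 12 libraries, by group on the horizontal axes, with points for libraries and bars for group means. Pou4f1, Isl1, Prox1, Gata3, Scrt2 and Calb1 are above all other libraries in FIBCL, Eya1 is below them, and Runx1 overlaps between FIBCL and SCDM.

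The promoters of the 4 homeodomain and zinc-finger factors that moved together, Pou4f1, Isl1, Prox1 and Gata3, are shown for reference. They are the 250 bases before the RefSeq start in GRCm38.p6, all on the minus strand and written 5′ to 3′ along the gene. Capitals mark CANNTG, the E-box read by basic helix-loop-helix factors such as the Neurod and Neurog proteins, which reads alike on both strands.
Pou4f1, chr14:104468000-104468249: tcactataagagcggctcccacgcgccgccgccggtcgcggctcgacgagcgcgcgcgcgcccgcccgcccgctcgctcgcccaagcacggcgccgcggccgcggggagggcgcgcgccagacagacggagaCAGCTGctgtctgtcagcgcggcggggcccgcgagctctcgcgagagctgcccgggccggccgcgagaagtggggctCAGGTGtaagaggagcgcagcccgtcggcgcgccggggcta
Isl1, chr13:116309689-116309938: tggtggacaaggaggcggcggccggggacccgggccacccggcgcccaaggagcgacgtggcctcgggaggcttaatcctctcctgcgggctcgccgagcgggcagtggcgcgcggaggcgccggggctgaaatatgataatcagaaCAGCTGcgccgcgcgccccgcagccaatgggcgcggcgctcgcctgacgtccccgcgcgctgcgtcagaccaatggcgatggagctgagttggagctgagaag
Prox1, chr1:190170828-190171077: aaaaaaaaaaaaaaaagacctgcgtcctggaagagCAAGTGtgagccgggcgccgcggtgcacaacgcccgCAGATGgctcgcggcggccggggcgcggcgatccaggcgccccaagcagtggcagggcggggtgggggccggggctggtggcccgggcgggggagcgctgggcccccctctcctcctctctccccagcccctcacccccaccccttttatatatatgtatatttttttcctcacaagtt
Gata3, chr2:9878601-9878850: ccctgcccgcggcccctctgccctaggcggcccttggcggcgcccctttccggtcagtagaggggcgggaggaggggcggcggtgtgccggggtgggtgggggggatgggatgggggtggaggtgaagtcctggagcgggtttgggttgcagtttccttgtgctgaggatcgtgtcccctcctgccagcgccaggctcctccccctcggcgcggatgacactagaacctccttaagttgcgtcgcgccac
An E-box was present 2 times in the Pou4f1 window, 1 time in the Isl1 window and 2 times in the Prox1 window, and it was not in the Gata3 window. A second Prox1 start in the table had none in its own window. Of all 32851 windows of this length, 66.2% hold at least 1. The form CAGGTG (or CACCTG), which is read by Scratch and Snail repressors and is itself an E-box, was in the Pou4f1 window and in 17.2% of all windows. The cAMP response element TGACGTCA, looked for because Forskolin raises cAMP, was in none of the 4 windows and in 1.55% of all windows. Its shorter form TGACG (or CGTCA) was present 2 times in the Isl1 window and in 17.8% of all windows. The TCF/LEF motif CTTTGA (or TCAAAG), looked for because CHIR99021 activates that pathway, was in none of the 4 and in 13.8% of all windows. The GC content was 78% for Pou4f1, 71.2% for Isl1, 64.8% for Prox1 and 70% for Gata3, against a median of 52.4% over all windows. The table of promoters matched 5 of the 9 genes, and Calb1, Calb2, Eya1 and Scrt2 were not matched.

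Pou4f1 (ENSMUSG00000048349, chromosome 14, 104461676 to 104467999, minus strand, GENCODE M21 on GRCm38) encodes the POU homeodomain factor Brn3a of sensory neurons. It was at 3.02, 2.97 and 3.27 scaled TPM in the FIBCL libraries. In SCDM it was at 0.114, 0 and 0.0756, in spheres at 0, 0.0525 and 0.0168, and in SCDM/FGF it was listed at 0 in all 3 libraries. The lowest FIBCL library was thus far above the highest of the others. The log2 fold change was 1.94 ± 0.0905 (SE, n = 3 per group) against SCDM, with an adjusted p of 3.83e-09 by limma. It was 2.03 against SCDM/FGF and 2.00 against spheres. With a pseudocount of 0.1 the value against SCDM was 4.35. Of its relatives, Pou4f3, a hair cell factor, was at 0.677 ± 0.283 (SD, n = 3) in FIBCL and listed at 0 elsewhere, and Pou4f2 was at 0.103 ± 0.0919. Neither was tested. Pou4f1 and Pou4f3 were thus both above 0 in FIBCL, with Pou4f1 the higher.

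Isl1 (ENSMUSG00000042258, chromosome 13, 116298281 to 116309689, minus strand) encodes a LIM homeodomain factor shared by sensory and motor neurons. It was at 2.01, 2.66 and 1.69 scaled TPM in FIBCL, and no library of the other groups exceeded 0.0882. It was 1.61 ± 0.119 (SE) higher than in SCDM on the log2 scale, 1.59 higher than in SCDM/FGF and 1.58 higher than in spheres. Its relative Isl2 was listed at 0 in all 9 other libraries and was higher than Isl1 in FIBCL, at 6.18 ± 0.570 scaled TPM (SD, n = 3). TPM is corrected for transcript length, so these levels can be set side by side. Ldb1, which encodes the cofactor of LIM homeodomain proteins, did not pass the test between FIBCL and SCDM (log2 fold change 0.02), and Lmo4, whose product competes for that cofactor, fell by 1.93.

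Prox1 (ENSMUSG00000010175, chromosome 1, 190118035 to 190170714, minus strand) encodes a homeodomain factor of young SGNs, of supporting cells and of lymphatic endothelium. It was the most even of the 9 genes in FIBCL, at 3.96, 3.99 and 3.98 scaled TPM. In spheres it was at 0.584, 0.699 and 0.664, in SCDM/FGF at 0.421, 0.373 and 0.498, and in SCDM at 0.124, 0.168 and 0.236. The 4 groups did not overlap, in the order FIBCL, spheres, SCDM/FGF, SCDM. FIBCL was 22.6 times SCDM, 9.23 times SCDM/FGF and 6.13 times spheres in scaled TPM, and 2.08 ± 0.0888 (SE) above SCDM on the log2 scale (adjusted p = 1.81e-09, limma). Prox1 fell by 0.49 from spheres to SCDM (adjusted p = 0.000772, limma). The neighbours spheres and SCDM/FGF did not pass the test (log2 fold change -0.21, adjusted p = 0.0761, limma). SCDM/FGF was 0.28 above SCDM (adjusted p = 0.0236, limma), a call that was lost by quantile normalization (0.23, adjusted p = 0.0702) and without SCDM replicate 1 (0.25, adjusted p = 0.0765), SCDM replicate 2 (0.28, adjusted p = 0.0605) or SCDM/FGF replicate 3 (0.25, adjusted p = 0.0753). Its relative Prox2 fell from 2.00 to 1.39 scaled TPM between SCDM and FIBCL, a log2 fold change of -0.33.

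Prox1 is also a defining gene of lymphatic endothelium, so the 10 endothelial markers were read beside it. Flt4, the VEGF-C receptor, had a mean of 25.6 scaled TPM in FIBCL against 0.0976 in SCDM, and Kdr, a VEGF receptor, was at 10.1 and 1.82. Others were at or near 0 in FIBCL, with Cldn5 and Emcn listed at 0 in all 3 libraries, Lyve1 at 0.017 and Pecam1 at 0.11. Summed over the list the level was 37.9 to 40.8 scaled TPM in FIBCL and 74.2 to 79.8 in SCDM. It was 271 to 312 in SCDM/FGF and 113 to 114 in spheres. Of the 9 tested markers, 3 rose and 4 fell against SCDM, beside 32.7% and 39% of all genes. Against SCDM/FGF (32.5% and 38.2% of all) and against spheres (32.9% and 38.7%), 2 rose and 5 fell. The list thus went in both directions where Prox1 was highest, and its part in the level of Prox1 was not tested.

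Gata3 (ENSMUSG00000015619, chromosome 2, 9857078 to 9890034, minus strand) encodes a zinc-finger factor needed for SGN development, and also acts in T lymphocytes. It was at 2.87, 3.04 and 2.54 scaled TPM in FIBCL. In SCDM it was at 0.181, 0.177 and 0.189, in SCDM/FGF at 0.284, 0.443 and 0.356, and in spheres at 0.517, 0.21 and 0.596. FIBCL stood apart, and the other 3 groups were all below 1. The log2 fold change was 1.69 ± 0.119 (SE) against SCDM, 1.49 against SCDM/FGF and 1.41 against spheres, while no comparison among the other 3 groups passed the test. SCDM against spheres was near the threshold (-0.28, adjusted p = 0.0778, limma). It passed with a pseudocount of 0.1 (-0.85), without the variance trend (-0.28) and without sphere replicate 2 (-0.39). Cd3e, the T cell marker, was listed at 0 in all 12 libraries, but the list of 10 lymphocyte markers was not. The list summed to 1.12 to 3.47 scaled TPM in FIBCL and 13.7 to 17.2 in SCDM. It summed to 18.7 to 24.2 in SCDM/FGF and 4.03 to 5.27 in spheres. The part of lymphocytes in the level of Gata3 was not tested.

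Gata3 was not the most abundant GATA gene. Gata2 was at 25.5 ± 5.20 scaled TPM in FIBCL (SD, n = 3) and rose by 2.22 against SCDM, but its difference from spheres, at 15.4, did not pass the test. Gata4, a heart and endoderm factor, was at 7.35 ± 0.732 in FIBCL and listed at 0 in SCDM. Gata6 was at 8.98 ± 0.802 in FIBCL and 2.23 in SCDM, and it rose by 1.62. Gata1 and Gata5 were at or near 0 in every group. FIBCL-iNs therefore held RNA of 4 GATA factors above 1 scaled TPM, and Gata3 was the lowest of the 4. The GATA cofactor Zfpm1 rose by 0.64 and Zfpm2 fell by 0.64 against SCDM.

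Scrt2 (ENSMUSG00000060257, chromosome 2, 152081529 to 152095802, plus strand) encodes a Scratch zinc-finger repressor of newly formed neurons. It was at 1.60, 1.45 and 1.76 scaled TPM in FIBCL, listed at 0 in the 3 SCDM libraries, and no higher than 0.0588 in any other library. The log2 fold change was 1.38 ± 0.0901 (SE) against SCDM, 1.37 against SCDM/FGF and 1.34 against spheres. Its relative Scrt1 was higher, at 7.36 ± 0.705 in FIBCL against 0.0125 in SCDM, and it rose by 3.04. Both Scratch genes thus had their highest level in FIBCL.

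**Figure D2:**
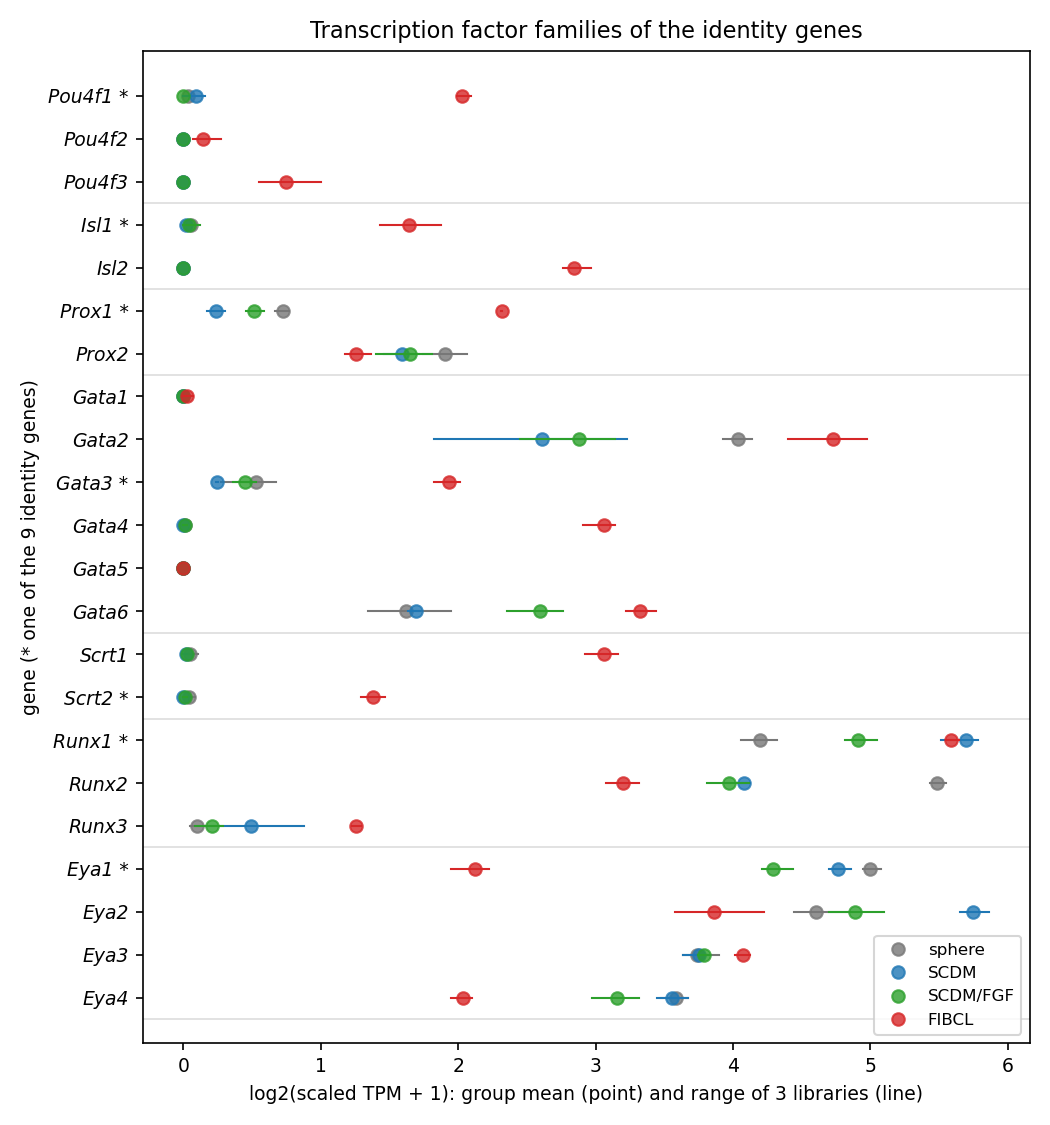
Mean (point) and range of 3 libraries (line) of log2(scaled TPM + 1) on the horizontal axis for the identity genes (marked *) and their relatives on the vertical axis, coloured by group. In FIBCL, Isl2, Scrt1 and Gata2, Gata4 and Gata6 are higher than the identity gene of the same family, while Eya1, Eya2 and Eya4 are lower than in the other groups.

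Runx1 (ENSMUSG00000022952, chromosome 16, 92601466 to 92826149, minus strand) encodes a Runt factor of sensory neurons that is also expressed in blood cells and their precursors. It was at 45.7, 46.0 and 49.1 scaled TPM in FIBCL, at 44.8, 54.0 and 53.9 in SCDM, at 32.0, 27.2 and 27.9 in SCDM/FGF, and at 17.4, 15.7 and 19.0 in spheres. FIBCL and SCDM overlapped, and the log2 fold change between them was -0.11 with a 95% interval of -0.31 to 0.09 (adjusted p = 0.309, limma). On the TPM as deposited, without scaling, it was -0.50 and passed the test, beside a median of all genes that moved from -0.07 to -0.40. The next in order, SCDM/FGF, was 0.68 ± 0.0916 (SE) below FIBCL and 0.78 below SCDM, and spheres were 0.71 below SCDM/FGF. Runx1 was thus 2.70 times as high in FIBCL as in spheres and 2.93 times as high in SCDM. Runx2 fell by 0.88 from SCDM to FIBCL, Runx3 rose by 0.79 to 1.38 scaled TPM, and Cbfb, the shared cofactor, fell by 0.27.

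Because Runx1 is expressed in blood cells, the summed level of 15 macrophage markers was read beside it. It was 609 to 748 scaled TPM in spheres, 5497 to 6033 in SCDM, 5676 to 6048 in SCDM/FGF and 187 to 224 in FIBCL. All 15 rose from spheres to SCDM (24.5% of all genes) and to SCDM/FGF (25%). All 15 fell from SCDM to FIBCL (39% of all genes). Against spheres, 1 rose and 13 fell in FIBCL (32.9% and 38.7% of all genes). Runx1 rose in both media with these macrophage markers. It was as high in FIBCL as in SCDM, while the macrophage sum was lowest in FIBCL. It was lower in SCDM/FGF than in SCDM, where the macrophage sums overlapped. The list of 10 mast cell and platelet markers summed instead to 69.9 to 70.4 scaled TPM in FIBCL. That list summed to 17.8 to 19.8 in SCDM, 27.3 to 34.6 in SCDM/FGF and 21.0 to 24.0 in spheres. In bulk RNA, fewer cells of a type and less RNA per cell cannot be told apart. The part of these cells in the level of Runx1 was not tested.

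Eya1 (ENSMUSG00000025932, chromosome 1, 14168954 to 14310235, minus strand) encodes a phosphatase and transcriptional coactivator of the otic placode and its neuroblasts. It was at 29.8, 30.3 and 32.8 scaled TPM in spheres, at 25.6, 28.0 and 25.0 in SCDM, at 20.6, 17.5 and 17.5 in SCDM/FGF, and at 3.67, 3.56 and 2.85 in FIBCL. No 2 groups overlapped. FIBCL was lower by 2.64 ± 0.0914 (SE) on the log2 scale than SCDM (adjusted p = 3.11e-10, limma), and SCDM was 7.80 times FIBCL in scaled TPM. Eya1 fell by 2.16 in FIBCL against SCDM/FGF and by 2.88 against spheres. SCDM/FGF was below SCDM by 0.48 (adjusted p = 0.00127, limma). Spheres and SCDM, the top pair, did not pass (log2 fold change -0.23, adjusted p = 0.054, limma), but passed in 6 of 24 alternatives, with adjusted p from 0.013 to 0.156 over all of them.

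The other Eya genes did not all follow Eya1. Eya2 fell by 1.91 and Eya4 by 1.52 between SCDM and FIBCL, and Eya3 rose by 0.32. Of the partner genes, Six4 rose by 0.43 and Six2 did not pass the test (0.20). Of 12 listed partners of the identity genes, 11 were tested, 3 rose and 6 fell against SCDM, beside 32.7% and 39% of all genes. The mesenchyme markers, like Eya1, were lowest in FIBCL, but in the other groups their order differed from that of Eya1. Their 12 genes summed to 10431 to 11351 scaled TPM in SCDM and 7480 to 7804 in SCDM/FGF. They summed to 3754 to 3870 in spheres and 1413 to 1449 in FIBCL. From SCDM to FIBCL, 11 of 12 fell and 1 rose, beside 39% and 32.7% of all genes. The 14 glial markers summed to 935 to 974 in spheres and 484 to 541 in SCDM. They summed to 430 to 484 in SCDM/FGF and 68.3 to 72.1 in FIBCL. Of the 14, 13 fell from SCDM to FIBCL, beside 39% of all genes. Their sums had the same order as Eya1, although SCDM and SCDM/FGF overlapped. The part of mesenchyme and glia in the level of Eya1 was not tested.

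**Figure D3:**
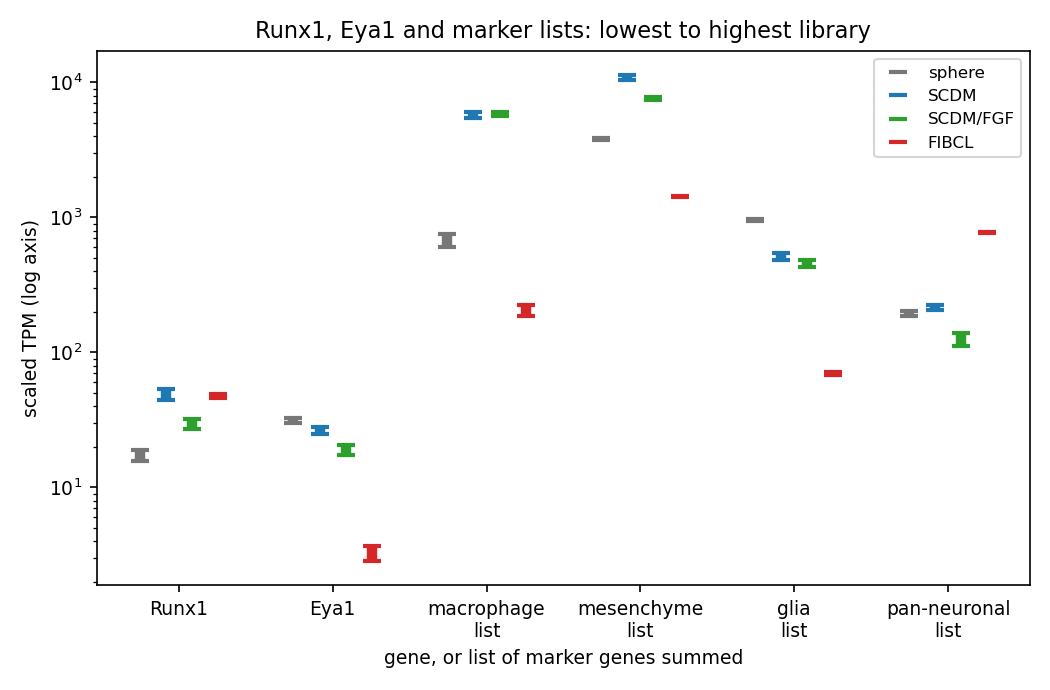
Lowest to highest library, in scaled TPM on a log axis, of Runx1, Eya1 and the summed macrophage, mesenchyme, glia and pan-neuronal marker lists, by group. Runx1 is as high in FIBCL as in SCDM while the macrophage sum is 187 to 224 in FIBCL and 5497 to 6033 in SCDM, and Eya1 is lowest in FIBCL, where the mesenchyme and glia sums are lowest.

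The genes for the calcium-binding proteins calbindin (Calb1) and calretinin (Calb2) were too low for the filter and were not among the genes tested. The filter used TPM before scaling, in which Calb1 was at 1.43, 1.74 and 0.86 in the FIBCL libraries. Calb1 (ENSMUSG00000028222, chromosome 4, 15881264 to 15908064, plus strand) was at 1.71, 2.14 and 1.13 scaled TPM in FIBCL and at most 0.28 in any other library, in sphere replicate 2. With a filter of 0.5 TPM it was among 17744 tested genes and was 1.36 ± 0.148 (SE) higher in FIBCL than in SCDM (adjusted p = 6.83e-06, limma). It reached 0.5 TPM only in the FIBCL libraries, so once tested it had to be higher there, and the value is a description. Calb2 (ENSMUSG00000003657, chromosome 8, 110137502 to 110168210, minus strand) was at 0.0598, 0.0616 and 0.092 scaled TPM in FIBCL, at 0.305, 0.934 and 0 in SCDM, at 0.0762, 0.0787 and 0.0756 in spheres and listed at 0 in SCDM/FGF. The SCDM libraries spanned the whole range of the other groups. Without a filter, the log2 fold change between FIBCL and SCDM was -0.35 with a 95% interval of -0.74 to 0.05 (adjusted p = 0.162, limma). The related Scgn was at 0.0624 in FIBCL.

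By the test, 5 of the 7 tested identity genes rose, 1 fell and 1 did not pass between FIBCL and SCDM. Over all genes tested, 32.7% rose and 39% fell. With a limit of 1.5 on the log2 fold change added, 4 rose (Pou4f1, Isl1, Prox1 and Gata3) and 1 fell, against 7.89% and 9.98% of all. Of the 7 tested, 5 (these 4 and Scrt2) reached the limit for testing only with the FIBCL libraries. They had to be higher there, so the counts of risen genes are a description and cannot be read as an excess over these shares. Against SCDM/FGF, 6 rose and 1 fell (32.5% and 38.2% of all genes), and against spheres 6 rose and 1 fell (32.9% and 38.7%). These 3 comparisons share the FIBCL libraries. From spheres to SCDM only Runx1 rose and only Prox1 fell among the 7, where 24.5% of all genes rose and 25.8% fell. From spheres to SCDM/FGF, Runx1 rose and Eya1 fell (25% and 25.4% of all). In SCDM/FGF against SCDM, Prox1 was higher and Runx1 and Eya1 were lower (21.8% and 21.3% of all). Neither neurotrophin medium raised Pou4f1, Isl1, Gata3 or Scrt2 past the test. These genes were below 1 TPM in every library of spheres and both media. The log2 scale used understates change there, so a rise within that range could be missed. The p-values rest on the spread between 3 libraries of a group, which the labels call biological replicates. That spread was pooled over the 4 groups and moderated across genes, and a group listed at 0 throughout adds none to it. With only the 2 compared groups in the model, the adjusted p of Pou4f1 in FIBCL against SCDM was 3.97e-06 (limma).

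**Figure D4:**
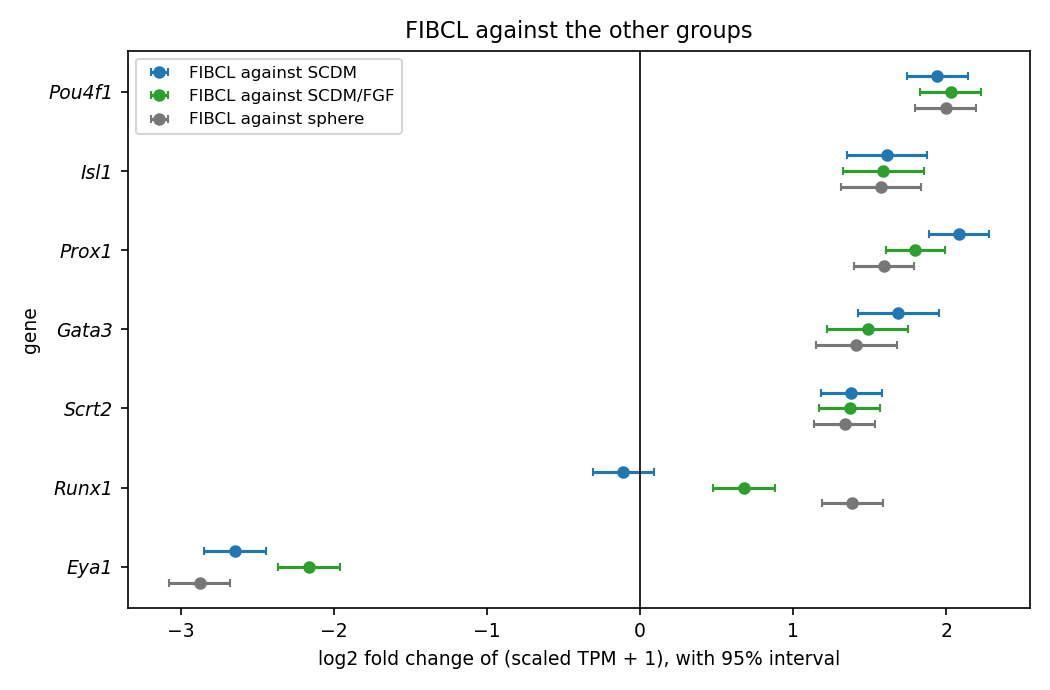
Log2 fold change of (scaled TPM + 1) with its 95% interval on the horizontal axis for the 7 tested identity genes, FIBCL against SCDM, SCDM/FGF and spheres. Pou4f1, Isl1, Prox1, Gata3 and Scrt2 lie between 1.34 and 2.08 in all 3 comparisons, Eya1 lies between -2.88 and -2.16, and the interval of Runx1 against SCDM includes 0.

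Except for Runx1, the tested identity genes were at low level in FIBCL beside other genes of the same libraries. In bulk RNA, a low level in many cells and a higher level in few cannot be told apart. In FIBCL, 27.1% of the genes tested were lower than Pou4f1, 22.1% were lower than Isl1, 30.8% than Prox1, 25.8% than Gata3, 28.3% than Eya1 and 18.5% than Scrt2, while 83.2% were lower than Runx1. Of 18 pan-neuronal genes, 15 were tested between FIBCL and SCDM, 14 rose and 1, Gap43, fell, beside 32.7% and 39% of all genes. Their median log2 fold change was 3.97, against -0.07 for all genes, and 5 of the 15 reached the limit only with FIBCL. The cytoskeletal gene Stmn2 was at 187 ± 4.55 scaled TPM (SD, n = 3) and Snap25, of the synaptic vesicle machinery, at 37.7 ± 0.142. Dcx, a marker of immature neurons, was at 0.0246 in FIBCL, and Rbfox3 (NeuN) at 0.949. Both were named after their values were seen.

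Among 18 other regulators of SGNs, 11 were tested between FIBCL and SCDM, 7 rose and 3 fell, beside 32.7% and 39% of all genes, and the median of the 11 was 1.63 on the log2 scale, beside -0.07 for all. Of the 11, 4 reached the limit for testing only with the FIBCL libraries and so had to be higher there. Sox11, a factor of young neurons, rose by 3.97 to 26.4 ± 1.40 scaled TPM (SD, n = 3), followed by Scrt1 and Isl2. Ebf1 fell by 2.62 and Ebf2 by 1.83. A pair of further members, Neurod1 and Neurog1, is given after their values were seen. Neurod1, the factor that follows Neurog1 in SGN neuroblasts, was at 2.29 ± 0.364 in FIBCL and no higher than 0.0101 on average elsewhere, and rose by 1.71. Neurog1 itself was at 0.016 in FIBCL. The early factor was thus near 0 where its follower was present.

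Markers of the SGN types went in both directions, as did all genes tested. Of 18 genes of type I neurons and their subtypes, 14 were tested, 7 rose and 6 fell between FIBCL and SCDM, with a median of 0.55, and 5 of the 14 reached the limit only with FIBCL. Over all genes, 32.7% rose and 39% fell, so the 6 that fell are near the share of all genes. Slc17a7, which encodes the glutamate transporter VGLUT1, rose by 3.34 to 10.8 ± 0.434 scaled TPM, Scn8a, a sodium channel, rose by 2.90, and Tubb3 rose by 2.71. The neurotrophin receptors fell, Ntrk2 by 3.88 and Ntrk3 by 2.42, and Ntng1 fell by 2.55. Ntrk2 was at 1.92 ± 0.327 in FIBCL against 165 in spheres. Of 8 type II genes, 5 were tested, 3 rose and 2 fell between FIBCL and SCDM, beside 32.7% and 39% of all genes. Of the 5, 1 reached the limit only with FIBCL. Etv4 rose by 2.22, Plk5 by 1.83 and Calca by 1.44, while Ngfr fell by 4.31 and Smad3 by 0.37. Ngfr is also among the 14 glial markers. The type II sum was 302 to 317 scaled TPM in spheres and 71.5 to 79.9 in FIBCL. It was 129 to 145 in SCDM and 151 to 180 in SCDM/FGF. The part of glia in the falls of type I and type II genes was not tested. Prph, the peripherin of type II neurons, was at 1.92 ± 0.871 in FIBCL and 0.0883 in SCDM and was not tested.

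Regulators of other neurons were read with the same measure. Of 35 listed, 34 were in the table and 12 were tested, with a median of 0.23 between FIBCL and SCDM. Of these, 6 rose and 1 fell, beside 32.7% and 39% of all genes. Of the 12, 4 reached the limit only with FIBCL. Eomes, known from the cortex, rose by 3.76 to 12.8 ± 0.630 scaled TPM, above each of the 6 identity genes that were highest in FIBCL. Lhx2, a forebrain factor, rose by 2.74 to 6.12, and En2, of the midbrain and hindbrain, rose by 2.04 to 3.21. Olig2 fell by 1.16. The transmitter genes were also mixed, with 4 of 6 tested rising and 1 falling of 16 listed, at a median of 2.46, and 4 of the 6 reached the limit only with FIBCL. Gad1, which makes GABA, rose by 3.54 to 13.1 ± 0.393, and the GABA and glycine vesicle transporter Slc32a1 rose by 3.13 to 7.85 ± 0.574, beside the glutamate transporter Slc17a7. Slc17a8 (VGLUT3) fell by 1.77. Genes of glutamate and of GABA neurons thus both rose, and whether in the same cells cannot be told apart in bulk RNA.

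**Figure D5:**
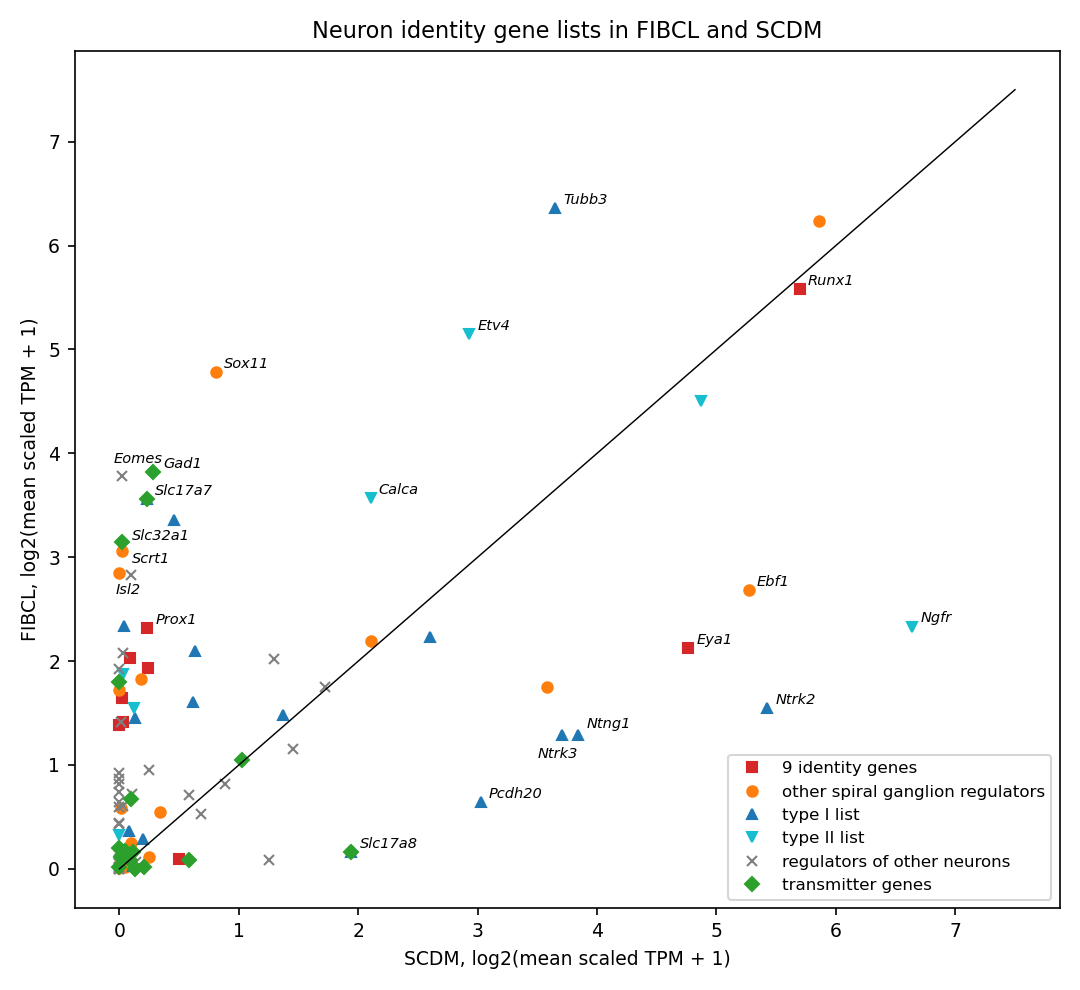
Mean level in SCDM (horizontal axis) and FIBCL (vertical axis), both as log2(mean scaled TPM + 1), for the 9 identity genes and the reported genes of 5 lists of neuron identity genes, with the line of equal level. Slc17a7, Gad1, Eomes, Isl2 and Scrt1 lie at the left, near 0 in SCDM, and Ntrk2, Ngfr, Ebf1 and Eya1 lie below the line.

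Hair cell and supporting cell genes were read because Pou4f1, Isl1, Prox1 and Gata3 have roles or close relatives in these cells. Of 12 hair cell genes 4 were tested, 1 rose and 2 fell between FIBCL and SCDM. In that comparison 32.7% of all genes rose and 39% fell, and each count here is to be read beside these shares. Espn rose by 3.22 to 12.7 scaled TPM, while Atoh1, the hair cell determinant, was at 0.0411 and Otof at 0.00399 in FIBCL. Of 15 genes of supporting cells and otic epithelium 10 were tested, 2 rose and 6 fell. Gjb2 and Gjb6, the cochlear connexins, fell by 3.43 and 3.53, and Epcam rose by 3.45. The list of 10 lymphocyte markers had 3 tested genes and all 3 fell, that of 10 mast cell and platelet markers had 3, of which 2 rose (Pf4 by 2.26 and Kit by 1.67), and that of 7 melanocyte markers had 2, of which 1 fell.

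Across the 12 libraries, the 6 genes highest in FIBCL had Pearson r of 0.949 to 0.996 with each other on log2(scaled TPM + 1), and the points fall into FIBCL and the rest. By this measure 524 to 1044 of the 16009 tested genes that are not identity genes reached an r of 0.95 with one of these 6. The 2 most like Pou4f1 were Map3k9 and Golga7b, those most like Isl1 were St8sia3 and Lhx1os, and those most like Prox1 were Tmem151b and Got2. For Gata3 they were Fndc3c1 and Got1l1, for Scrt2 Amelx and Foxl2, and for Calb1 Ppm1j and Tmem59l. Eya1 was most like Hbp1 (r = 0.998) and Col6a2 (r = 0.997). Runx1 had a rarer pattern, with only 31 genes at an r of 0.95, led by Ntn1, which encodes netrin 1 (r = 0.993), and Pag1. Ntn1 was at 20.3 scaled TPM in FIBCL, 21.1 in SCDM, 11.6 in SCDM/FGF and 6.79 in spheres, the same order of means as Runx1.

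Genes on the opposite strand overlap exons of 3 identity genes, and although the methods name an orientation mode for the alignment, whether the counting used strand is not stated. Prox1os, which overlaps Prox1, reached at most 0.13 TPM in any library, Gm13256 at Gata3 at most 0.27, and Gm26626 at Runx1 at most 0.28. On the same strand, 9230102O04Rik overlaps exons of Gata3 and reached at most 0.22 TPM.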

How the data were processed

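RNA-seq was analysed in 12 libraries of 4 groups (spheres, SCDM, SCDM/FGF, FIBCL), 3 per group by the sample labels. The authors trimmed and aligned the reads (TopHat) and estimated gene levels by RSEM, and the submitters' processing notes also name Cufflinks. The deposited values are TPM with 2 decimals for 55487 genes. The genome build is not given in the sources used here. Without read numbers, no interval that needs counts was computed.

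Each library was scaled to the average library by a trimmed mean of log2 ratios (30% off each end). It used 8434 genes that reached 5 TPM in every library. A gene was tested if it reached 1 TPM before scaling in 3 or more libraries, which 16016 genes did. Tests were made on log2(scaled TPM + 1) with limma 3.58.1 (R 4.3.3) and a variance trend. A single model held all 4 groups and gave 6 two-sided comparisons, each with its own Benjamini-Hochberg adjustment (threshold 0.05). The script was checked on data with known changes. A count model had been planned only in case the table held counts.

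The identity genes, the lists and the tests were chosen with earlier results of these data known. Named genes are the 9 identity genes, their relatives and partners, the 2 genes most correlated with each, and up to 3 highest and 3 lowest passing genes of each list between FIBCL and SCDM. Markers of other cell types were named as defining genes, after their values were seen. Same-numbered libraries did not deviate together, with residual r of -0.121 to 0.0976 over 18 pairs and 0 pairs above 0.1. Some listed genes are counted but not reported here by name. Positions came from GENCODE M21 and promoters from RefSeq. Alternatives covered scaling, pseudocount, filter, model, call rule, the replicate block and each library left out. Python 3.11.15 with pandas 2.3.3 and, for figures, matplotlib 3.10.9 was used.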

Additional observations from a re-analysis of the deposited data

How the results depend on the processing

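Over 24 settings, 957 of 978 recomputed log2 fold changes of the 7 tested identity genes kept their direction and their side of the threshold. Leaving out single libraries kept 6 changed genes for FIBCL against SCDM and 7 against SCDM/FGF and against spheres, and gave 2 to 3 for SCDM against spheres, 2 for SCDM/FGF against spheres and 2 to 3 for SCDM/FGF against SCDM. A filter of 5 TPM left only Runx1 and Eya1 in the test, so the counts of FIBCL against SCDM, SCDM/FGF and spheres were 1, 2 and 2. With a limit of 1.5 on the log2 fold change, these comparisons with SCDM/FGF and spheres counted 4 and 4, and SCDM against spheres, SCDM/FGF against spheres and SCDM/FGF against SCDM counted 0, 0 and 0. With a limit of 1 these last 3 counted 1, 0 and 0. The smaller counts follow from the stricter rule.

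With the replicate number as a replicate block, 42 of 42 fold changes kept their call, and Pou4f1 in FIBCL against SCDM stayed at 1.94. The direction turned only in values near 0, when single libraries were left out. Isl1 in SCDM/FGF against spheres lay between -0.055 and 0.0059, Isl1 in SCDM/FGF against SCDM between -0.018 and 0.043, and Gata3 in SCDM/FGF against spheres between -0.19 and 0.0050. Prox1 in SCDM/FGF against spheres passed on unscaled TPM (-0.30) and without the variance trend (-0.21). By Spearman's rho, 3 of the 16 most similar genes were the same. Depth being unknown, values near 0 could not be given a counting error.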
